A study of Mus musculus with 3 samples.

Results

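The regions described here are the Foxd3 peaks that were listed with the anti-HA antibody and met no peak of the anti-Flag list. They were chosen by position in the lists alone: a row of the HA list was kept when it overlapped no row of the Flag list by 1 bp or more. This left 910 of 3406 HA peaks, or 26.7% (95% Wilson interval 25.3 to 28.2), which covered 502 kb and 24.4% of the bases in the HA list. The remaining 2496 HA peaks are called shared, and the 2072 Flag peaks that met no HA peak are called Flag-only. Both precipitations came from FH-Foxd3, a mouse embryonic stem cell line made by transducing LF2 cells with a pTrip lentivirus that carries Foxd3 fused to Flag and HA tags, followed by neomycin selection. The cells were cultured without feeders in KO-DMEM with FBS and LIF. The anti-HA and the anti-Flag precipitation thus used the same line and the same added protein, which the series' design text describes as close to the endogenous level, and an input sample of total genomic DNA was not analysed here. Each antibody had 1 library. The lists hold positions only, so read depth and peak height are unknown, intervals cover counting error only, and no difference below carries a test.

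Foxd3 is a forkhead transcription factor, a family that binds DNA through a winged-helix domain. In embryonic stem cells it is known for its part in pluripotency and in the transition out of the naive state, where it acts at enhancers, and in the embryo it is a regulator of the neural crest. Flag and HA are short peptide tags recognised by their own antibodies, so a precipitation through either tag is directed at the same fusion protein. An antibody can also recover DNA unrelated to its target, and a peak caller lists a site only above its threshold. A peak present in 1 list is therefore a listed difference and not a measurement of absent binding in the other library. Differences in depth, threshold and antibody background between the libraries cannot be told apart in these lists.

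HA-only peaks gathered toward the end of the HA list. The lists do not state what their order means. The first HA-only peak stood on line 56, and it was the single HA-only peak among the first 100 lines. There were 14 among the first 500 lines, 300 among the last 500 and 72 among the last 100. The median line was 2570.5 for HA-only peaks (quartiles 1976.75 and 3037.75) and 1323.5 for shared peaks. In 10 equal bins of lines, the HA-only share was 2.93% (1.60 to 5.31) in the first bin, 2.05% (0.998 to 4.18) in the second and 8.53% (6.0 to 12.0) in the third. It was 24.4% (20.1 to 29.2) in the fifth bin and 23.2% (19.0 to 27.9) in the sixth, with overlapping intervals. The last 3 bins held 44.4%, 51.6% (46.3 to 56.9) and 62.6% (57.4 to 67.6). The longest unbroken run of HA-only lines was 13 lines long, from line 2945 to line 2957. Shared peaks nevertheless reached line 3405, the last but one, so no line separated the classes. In the Flag list, which has 4569 lines, the median line was 2873.5 for Flag-only and 1866 for shared Flag peaks.

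**Figure D1:**
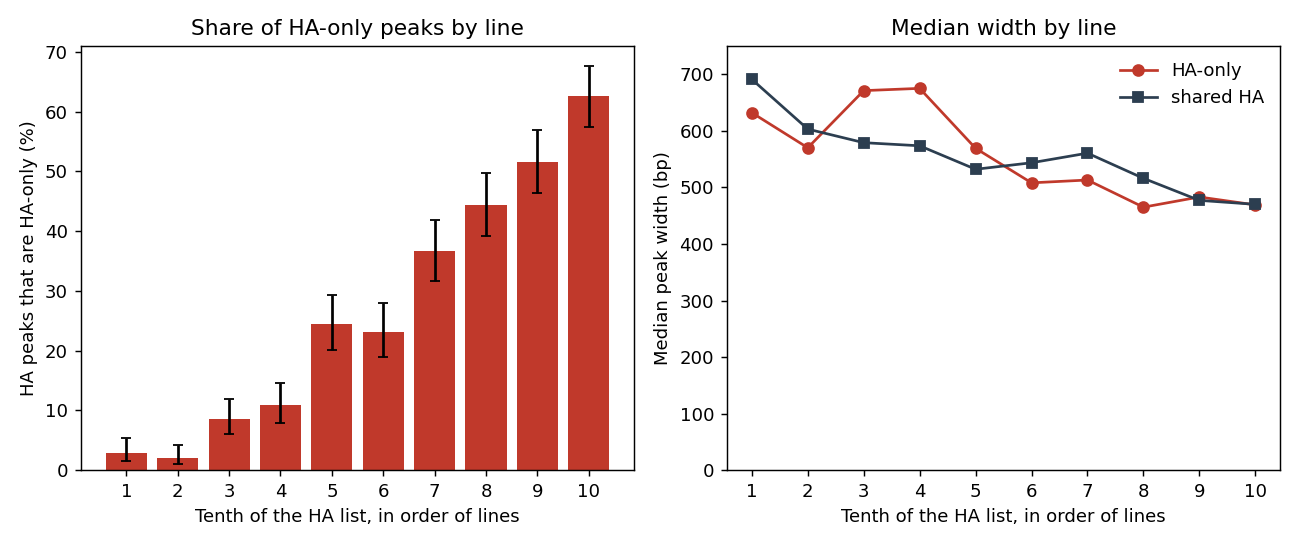
Left, share of HA peaks that are HA-only (%) in 10 equal bins of lines, with 95% Wilson intervals. Right, median width (bp) of HA-only and shared HA peaks in the same bins. The share goes from 2.93% in the first bin to 62.6% in the last, and the width curves cross.

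HA-only peaks had a smaller median width than shared HA peaks over the whole list, while within bins of lines the difference had either sign. Their widths ran from 145 to 1937 bp, with a median of 498 bp (95% order-statistic interval 480 to 511) and quartiles of 383.5 and 651.75 bp. Shared HA peaks had a median of 567 bp (555 to 577), and Flag-only peaks one of 407 bp (396 to 415). Peaks under 300 bp made up 6.92% of HA-only peaks (5.45 to 8.76), 2.76% of shared HA peaks (2.19 to 3.48) and 17.9% of Flag-only peaks (16.3 to 19.6). At the other end, 58 HA-only peaks were 1000 bp or longer, 6.37% (4.96 to 8.15), beside 8.41% of shared HA peaks (7.39 to 9.57) and 3.91% of Flag-only peaks (3.16 to 4.83). The median width of HA-only peaks thus lay between those of Flag-only and shared HA peaks, and the middle 50% of all 3 classes overlapped. Shared Flag peaks had a median of 548 bp (540 to 560), so the unshared peaks had the smaller median in both lists.

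**Figure D2:**
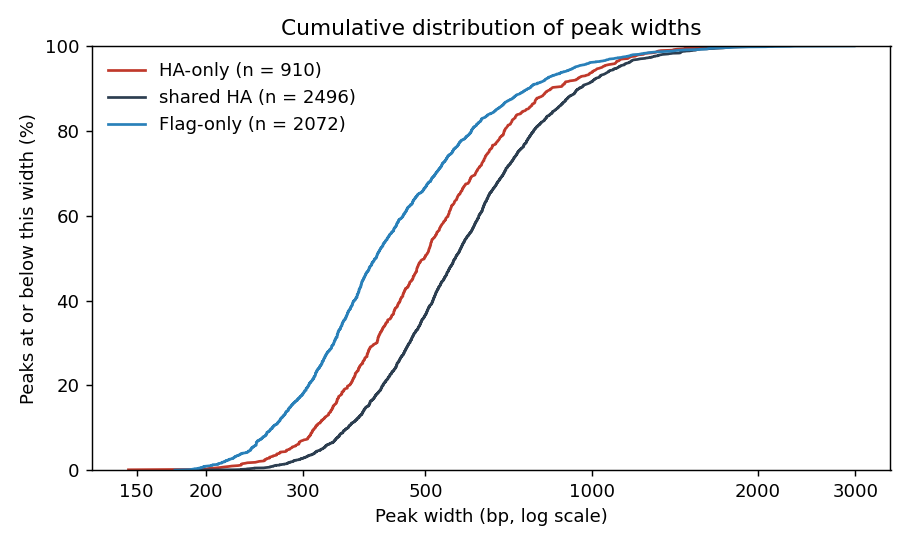
Cumulative share of peaks (%) against peak width (bp, log scale) for HA-only, shared HA and Flag-only peaks. The HA-only curve runs between the others, with medians of 407 bp (Flag-only), 498 bp (HA-only) and 567 bp (shared HA).

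Both classes of HA peak became narrower along the list. Across peaks, line and width had a Spearman rho of -0.19 in the 910 HA-only peaks and -0.26 in the 2496 shared HA peaks, and the points share 1 library. The unmatched difference in median width, HA-only minus shared, was -69 bp. Over the 10 bins, in order of lines, it was -59, -33, 92, 101.5, 37, -35.5, -47.5, -51, 6 and -1 bp. HA-only peaks were thus the wider from the third to the fifth bin and the narrower from the sixth to the eighth, and the medians nearly met in the last 2. HA-only peaks had the wider median in 4 bins and the narrower in 6. The first 4 bins held 10, 7, 29 and 37 HA-only peaks, and these widths have no interval per bin. Weighted by the number of HA-only peaks per bin, the mean difference was -7.61 bp (SD over the 10 bins 58.5 bp), an average over bins of opposite sign. In the first 50% of lines the 166 HA-only peaks had a median of 613 bp (546 to 657), beside 598 bp (582 to 613) for shared peaks. In the later 50% the 744 HA-only peaks had a median of 482 bp (467 to 502), beside 516 bp (501 to 532).

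At like width, HA-only peaks stood on later lines than shared peaks. In the narrowest of 10 width bins (145 to 346 bp) the median line was 2675 for HA-only and 2161 for shared peaks. In the widest bin (936 to 2121 bp) it was 2098.5 and 907. By width alone the HA-only share went from 44.0% (38.8 to 49.3) in the narrowest bin to 21.8% (17.7 to 26.5) in the widest, a smaller range than by line. Among peaks of the widest width class of 3, 10.6% (8.52 to 13.1) were HA-only in the first 50% of lines and 36.5% (32.1 to 41.1) in the later 50%. In the narrowest class of 3 these shares were 12.6% (9.75 to 16.1) and 47.8% (44.2 to 51.5).

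The first 10 HA-only peaks stood among 341 lines of which nearly all were shared. The peak on line 56 measured 976 bp at chromosome 14, 70751355 to 70752330 (mm9), and its nearest Flag peak was 270.3 kb away. Line 126 held a 729 bp peak at chromosome 11, 97873924 to 97874652. Line 134 held a 535 bp peak at chromosome 5, 116009147 to 116009681, 241 kb from Flag. Line 178 held a 1022 bp peak at chromosome 4, 125928357 to 125929378, and it was the most remote of the first 10, with 403 kb to the nearest Flag peak and 514 kb to the nearest other HA peak. The next 6 stood at chromosome 9, 100482201 to 100482687, chromosome X, 74754483 to 74754879, chromosome 8, 4192798 to 4193166, chromosome 2, 119533121 to 119533966, chromosome 7, 36136159 to 36136537, and chromosome 5, 65255755 to 65256571. These first 10 peaks ranged from 369 to 1022 bp in width, with a median of 632 bp, and 1 of them had a Flag peak within 10 kb. Gene names and exon or intron status are left out for every peak here, as an annotation of the mm9 build was not at hand.

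The peak on line 126 belonged to a split site. To its left lay a 284 bp HA-only peak (line 2501, chromosome 11, 97873416 to 97873699), with 224 bp between them. A 225 bp Flag-only peak (97873114 to 97873338) lay 77 bp further left. Both HA-only peaks therefore count as unshared although a Flag peak stood 77 and 585 bp from them.

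The widest HA-only peaks were other peaks than the earliest: the 10 widest and the first 10 had 0 peaks in common. The 10 widest stood on lines 1024 to 2456. Of these, 3 had a Flag peak within 10 kb and 8 within 100 kb. The 1406 bp peak at chromosome 6, 122651954 to 122653359, had a 1703 bp Flag-only peak 3593 bp away, so each antibody listed a wide peak there that the other did not. The 1868 bp peak at chromosome 14, 76906971 to 76908838, lay 5870 bp from a shared Flag peak of 2515 bp. The 1404 bp peak at chromosome 14, 77918799 to 77920202, had another HA peak 8687 bp away and the nearest Flag peak at 44.7 kb. Of the 10, the one farthest from any other HA peak was a 1473 bp peak at chromosome 7, 6209649 to 6211121, with 127 kb to the nearest Flag peak and 1432 kb to the nearest other HA peak. The one farthest from a Flag peak was a 1468 bp peak at chromosome 1, 154942398 to 154943865, with 139 kb to the nearest Flag peak and 194 kb to the nearest other HA peak. The remaining wide peaks measured 1937, 1614, 1572, 1508 and 1426 bp, and had their nearest Flag peak at 877 bp, 30.2 kb, 35.3 kb, 65.5 kb and 25.7 kb. The 1426 bp peak lay at chromosome 1, 135590452 to 135591877.

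The narrowest HA-only peak, at 145 bp, was the only one below 199 bp and lay at chromosome 1, 8930988 to 8931132, on line 3032. The next in width, at 199 bp, was on chromosome 7, from 91421938 to 91422136. A 201 bp peak followed on chromosome 18, from 75526674 to 75526874, then one of 203 bp on chromosome 16, from 36707909 to 36708111, and one of 209 bp on chromosome 10, from 98162343 to 98162551. The narrowest shared HA peak measured 193 bp.

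Few HA-only peaks were near misses. Just inside the rule, 5 HA-only peaks lay under 100 bp from a Flag peak and 9 under 200 bp. The closest was a 417 bp peak at chromosome 17, 31943052 to 31943468, with 22 bp to a 408 bp Flag-only peak. The others were at chromosome 11, 3069416 to 3070234 (56 bp), chromosome 2, 160342005 to 160342828 (65 bp), the split site on chromosome 11 (77 bp), and chromosome 7, 20327734 to 20328152 (81 bp). Just outside the rule, the shared HA peak with the least overlap met its Flag peak over 77 bp and lay on chromosome 3 (101993831 to 101994443). Overlaps of 121, 195, 205 and 214 bp followed, for HA peaks on chromosome 8 (28360997 to 28361671), on chromosome 19 (12238786 to 12239029), on chromosome 7 (137402157 to 137402394) and on chromosome 16 (57473554 to 57473881). The last 3 of these HA peaks were 244, 238 and 328 bp wide, so most of each lay inside the Flag peak. Only 3 shared HA peaks overlapped by under 50% of the shorter peak. The edge of the rule thus held few peaks on either side.

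Apart from the overlap that the rule used, distances to Flag peaks were close to those of shared HA peaks. The nearest Flag peak was a median of 88.9 kb from an HA-only peak (order-statistic interval 75.9 to 105 kb). The nearest Flag peak that a shared HA peak did not itself overlap was a median of 82.7 kb away (78.1 to 94.7 kb). A Flag peak lay within 10 kb of 130 HA-only peaks, 14.3% (12.2 to 16.7), and a further, non-overlapping one within 10 kb of 381 shared HA peaks, 15.3% (13.9 to 16.7). Within 1 kb the counts were 27 HA-only peaks, 2.97% (2.05 to 4.28), and 111 shared peaks, 4.45% (3.71 to 5.33). At 100 kb or more there were 434 HA-only peaks, 47.7% (44.5 to 50.9), and 1166 shared peaks, 46.7% (44.8 to 48.7). The intervals overlap at each of these distances. Flag-only peaks, which look for a partner in the shorter HA list, were a median of 155 kb (145 to 170 kb) from an HA peak.

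**Figure D3:**
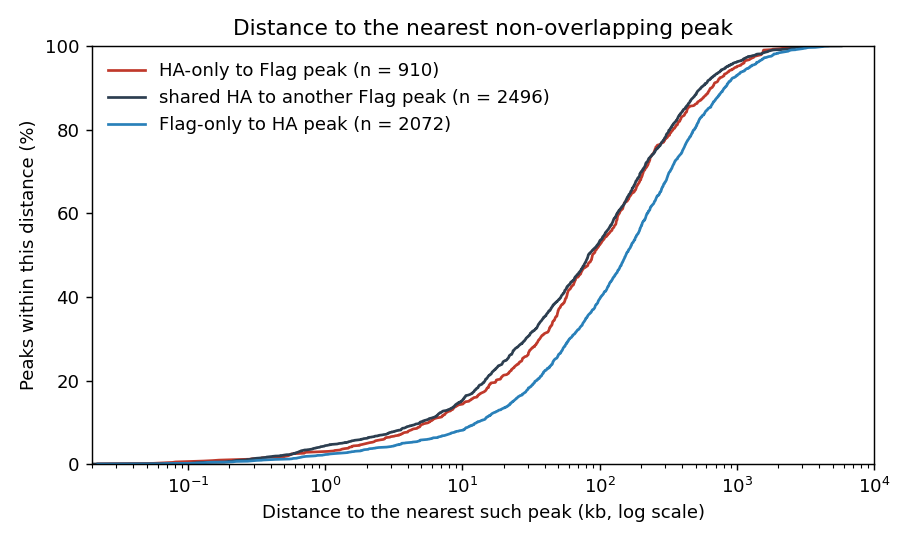
Cumulative share of peaks (%) against the distance to the nearest non-overlapping peak of the other list (kb, log scale), for HA-only, shared HA and Flag-only peaks. The HA-only and shared HA curves run close together, with medians of 88.9 and 82.7 kb, and the Flag-only curve lies to their right.

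The median width of HA-only peaks was smaller in each class farther from a Flag peak. The median width was 603 bp (469 to 780) for the 27 under 1 kb, 559 bp (502 to 631) for the 103 at 1 to 10 kb, 513 bp (487 to 550) for the 346 at 10 to 100 kb, and 468 bp (450 to 484) for the 434 at 100 kb or more. Shared HA peaks showed the same order from 1 kb on, with medians of 657, 581 and 532.5 bp, after 628 bp under 1 kb. The intervals of the first 3 HA-only classes overlap, while that of the most distant class lies below those at 1 to 10 and 10 to 100 kb. Median lines did not follow this order, with 2063 (1491 to 2854), 2607, 2545.5 and 2632.5 in the HA-only classes.

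Of the 130 HA-only peaks within 10 kb of a Flag peak, the nearest Flag peak was a shared one for 83, or 63.8% (55.3 to 71.6), and a Flag-only one for 47. Under 1 kb the split was 15 shared and 12 Flag-only. At each of these 12 HA-only peaks, both antibodies listed a peak but the intervals did not meet. They include both HA-only peaks of the split site on chromosome 11, which have the same nearest Flag-only peak. Those with a Flag-only neighbour include the 780 bp peak at chromosome 13, 110423107 to 110423886, 129 bp from Flag, the 410 bp peak at chromosome 6, 136503290 to 136503699, 151 bp from Flag, and the 791 bp peak at chromosome 7, 3213236 to 3214026, 549 bp from Flag. These 3 were chosen after their values were seen.

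At the far end, 45 HA-only peaks, 4.95% (3.72 to 6.55), had no Flag peak within 1000 kb. The farthest was a 505 bp peak at chromosome 6, 18174979 to 18175483, with 3.72 Mb to the nearest Flag peak and 4477 kb to the nearest other HA peak, so it stood alone in both lists. A 343 bp peak at chromosome 18, 52038976 to 52039318, came next with 2.95 Mb. On chromosome 10, a pair of HA-only peaks 63 kb apart (36267554 to 36268110 and 36331111 to 36331688) lay 2.32 and 2.38 Mb from the nearest Flag peak. A 346 bp peak at chromosome 1, 145578894 to 145579239, lay 2.37 Mb away.

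Most HA-only peaks were isolated, as were most shared peaks. With neither another HA peak nor a Flag peak within 10 kb there were 758 HA-only peaks, 83.3% (80.7 to 85.6). Of the shared HA peaks, 2030 or 81.3% (79.8 to 82.8) had neither another HA peak nor a further Flag peak in that distance. The isolated HA-only peaks had a median width of 483 bp (468 to 506). The other 152 HA-only peaks had a median width of 564 bp (514 to 615) at a nearly equal median line (2565.5, against 2570.5). Of those 152, 99 had neighbours in both lists, 31 in the Flag list alone and 22 in the HA list alone. Another HA peak lay within 10 kb of 121 HA-only peaks, 13.3% (11.2 to 15.7), and of 355 shared peaks, 14.2% (12.9 to 15.6). The nearest one was HA-only for 33 of the 121, 27.3% (20.1 to 35.8), and for 93 of the 355, 26.2% (21.9 to 31.0), both close to the 26.7% of the whole HA list.

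HA peaks were linked into groups where fewer than 12500 bp separated neighbours. The HA-only share was 27.1% (25.5 to 28.8) among the 2865 peaks that stood alone, 24.8% (20.9 to 29.1) among the 420 peaks in pairs, and 24.0% (17.2 to 32.3) among the 121 peaks in groups of 3 or more, with overlapping intervals. Pairs were both shared in 117 cases, mixed in 82 and both HA-only in 11. Of the 34 groups of 3 or more, 16 held no HA-only peak and 18 held at least 1. Among those 18, 5 were mostly HA-only, including 1 that consisted of HA-only peaks alone.

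The group of HA-only peaks alone lay on chromosome 16, 22402652 to 22416732. Its 4 peaks measured 632, 451, 368 and 527 bp and stood on lines 2558, 2239, 2754 and 3319. A 580 bp Flag-only peak (22412924 to 22413503, Flag line 1811) lay inside the group, between its 368 and 527 bp peaks and 723 bp from the former. The window from 22 to 23 Mb of chromosome 16 held 6 HA-only peaks, the highest count of any 1 Mb window, beside 4 shared HA peaks.

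The group on chromosome 11, 3069416 to 3100146, had 5 HA-only peaks among 9. They measured 819, 1937, 1175, 615 and 693 bp. The first 2 lay beside shared peaks, at 56 and 877 bp from a Flag peak. The last 3 lay in a row between 3097531 and 3100146, at 344, 1567 and 2267 bp from a single 1770 bp Flag-only peak (3095417 to 3097186). In this group all 5 HA-only peaks thus stood within 10 kb of a Flag peak.

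The other groups were smaller. On chromosome 19, 14730371 to 14754903, 3 HA-only peaks of 641, 1119 and 698 bp surrounded a 943 bp shared peak, with 14.2, 6.85 and 8.17 kb to the nearest Flag peak. On chromosome 14, 99738677 to 99753697, HA-only peaks of 394 and 703 bp lay 11.2 and 11.9 kb from the 2426 bp Flag peak of a shared site. On chromosome 2, 20590712 to 20613308, HA-only peaks of 223 and 590 bp lay 8.64 and 17.5 kb from a 2066 bp Flag-only peak. All HA-only peaks of these 5 groups stood on lines 1240 to 3319.

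**Figure D4:**
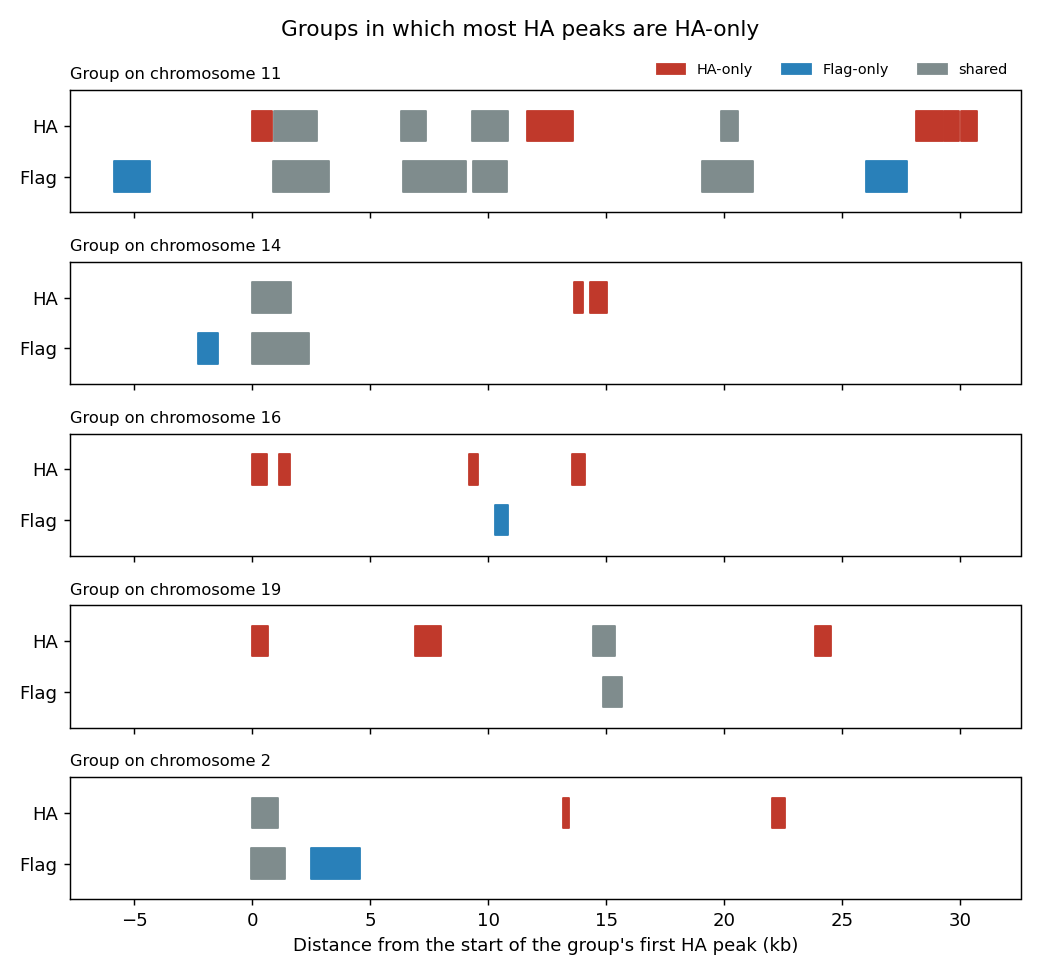
The 5 groups of 3 or more HA peaks in which most are HA-only, drawn to scale as distance (kb) from the start of the first HA peak, with HA peaks above and Flag peaks below, and colour for HA-only, Flag-only and shared peaks. On chromosome 16 a Flag peak lies between HA-only peaks, on chromosomes 14 and 2 the Flag peaks lie at the other end of the group, and 3 HA-only peaks lie almost end to end at the right of the chromosome 11 group.

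HA-only peaks were spread over all 20 chromosomes in the lists, and no chromosome held more than 8.35% of them. Their share of HA peaks was highest on chromosome 13, at 33.1% (26.1 to 41.0), followed by chromosome 7 at 31.7% (25.1 to 39.2) and chromosome 16 at 30.8% (22.9 to 40.1). It was lowest on X, at 17.6% (12.4 to 24.5), then on chromosome 10 at 20.2% (15.3 to 26.1) and chromosome 6 at 20.4% (15.2 to 26.9). The intervals of 18 chromosomes contained the share of the whole list, and those of X and chromosome 10 lay below it. Neighbours in this order did not differ beyond their intervals. HA-only peaks had a later median line than shared peaks on 20 of 20 chromosomes. They had the narrower median width on 19 of 20, the exception being chromosome 11 (570 bp for HA-only and 529 bp for shared peaks). The gap was widest on chromosome 8, with 477 bp (438 to 563) for its 76 HA-only peaks and 673.5 bp for its shared peaks. Widths per chromosome were not matched on line, and within bins of lines the difference had either sign.

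**Figure D5:**
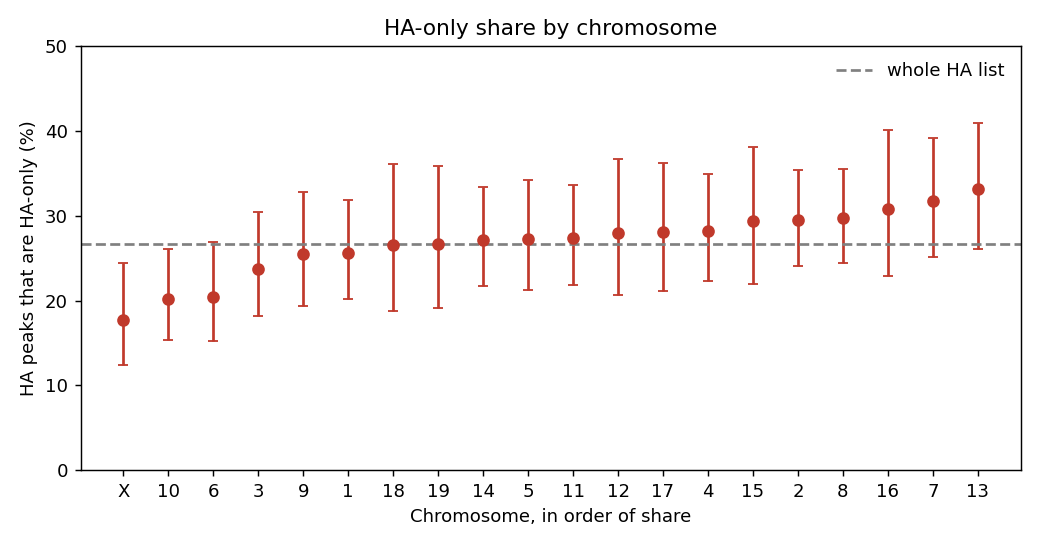
HA-only peaks as a share of HA peaks (%) on each chromosome, in order of share, with 95% Wilson intervals and the share of the whole list (26.7%) as a dashed line. Shares run from 17.6% on X to 33.1% on chromosome 13, and most intervals cross the line.

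Within chromosomes, most 1 Mb windows that held any HA-only peak held 1. Counted by their centres in 1 Mb windows, 541 windows held 1 HA-only peak, 117 held 2 and 26 held 3. A further 13 windows held 4 or more. Windows were not counted in this way for shared HA peaks, so whether HA-only peaks gathered more or less than those was not tested. Besides the windows on chromosomes 16 and 11 with the groups above, 5 HA-only peaks each lay in the windows from 97 to 98 Mb of chromosome 11 and from 23 to 24 Mb of chromosome 13. In the window on chromosome 13 there were 2 shared HA peaks, and its HA-only peaks had a median width of 412 bp. The window from 72 to 73 Mb of chromosome 2 held 4 HA-only peaks, 0 shared HA peaks and 0 Flag-only peaks, so every listed HA peak there was HA-only. These windows were chosen after their counts were seen.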

How the data were processed

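Foxd3 was mapped by chromatin immunoprecipitation and sequencing with 1 library per antibody. The authors deposited 1 peak list per antibody, with 3 columns (chromosome, start and end in bp) and no other value. Positions are on mm9, per the submitters' processing notes. How reads were aligned, how peaks were called and what part the input had is not stated in these sources. Starts were converted to 1-based positions for printing. Distances are bases between the facing edges of peaks. The HA-only count was checked against bedtools 2.31.1. The analyses used Python 3.11.15, numpy 2.4.6, pandas 2.3.3, scipy 1.17.1 and matplotlib 3.10.9, and were tested on simulated data. Shares have 95% Wilson intervals and medians 95% order-statistic intervals. Peaks of 1 library are not replicates, and the lists themselves chose the HA-only peaks, so no test was made. The peaks named are the 10 widest, the first 10 by line, the 5 narrowest, the 5 nearest to and 5 farthest from a Flag peak, the 5 shared peaks with the least overlap, and groups of 3 or more HA peaks that are mostly HA-only. The peaks and rules were chosen with earlier results of these data known. Motifs, gene positions and gene lists were planned but not run, since they need an mm9 genome or annotation.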

Additional observations from a re-analysis of the deposited data

How the results depend on the processing

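Of 54 values under an alternative, 39 stayed inside the interval of the main value or within 1.5 times the main count, or, for the width difference at matched lines, within 1 SD over bins. The limit for counts is the looser. With 50% of each peak, the count of 1032 stayed inside its limit while the share of 30.3% did not. Requiring an overlap of 50% of each peak gave an HA-only share of 30.3% and put 24.4% of HA-only peaks within 10 kb of Flag. The HA peaks that this rule adds all overlap a Flag peak in part, so both rises follow from the rule. An overlap of 50% of the shorter peak gave 913 HA-only peaks and one of 50% of each peak gave 1032. The wider 50% of the HA list gave 368 HA-only peaks, a share of 21.5%, a median width of 694 bp and 19.0% within 10 kb of Flag. The first 50% of HA lines gave 166 peaks, 9.75%, 613 bp and 16.9%. Both settings hold fewer HA peaks by construction. Keeping the wider peaks also raises the median width by construction. The 2 shares describe the same change by width and by line as the bins above, at a coarser division. Without the groups of 3 or more HA peaks, a setting chosen after seeing the data, 12.0% lay within 10 kb of Flag. The HA-only share in the last bin of lines was 57.1% with 5 bins and 67.6% with 20 bins. The number of HA-only peaks in groups of 3 or more was 29, and 6 with links under 5 kb and 55 with links under 25 kb. At matched lines, the width difference was -9.78 bp with 5 bins and -10.0 bp with 20 bins, also chosen after seeing the data. No paired analysis was possible because there is 1 library per antibody, and for that reason no replicate could be left out. Alternatives for start-site windows and motif windows were not run. Without read depth, Flag signal at HA-only peaks has no known upper limit.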
